A study of Drosophila melanogaster with 24 samples.

Results

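The signals by which the fat body reports nutrient state to other organs were followed through 7 genes, fit, upd2, Gbp1, Gbp2, egr, sun and daw. They were chosen by gene name, and 6 of the 7 were among the 12126 features that the table of all 24 libraries lists. The other, upd2, was listed only in the table that compares Gcn2 mutants on -R and on Yaa. All 6 genes in the full table passed the minimum mean of 10 normalized counts and were tested.

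The fat body of the fly combines the roles of liver and adipose tissue, and it senses dietary amino acids largely through the TOR kinase and, under deprivation, through the kinase GCN2. It answers with secreted proteins that reach the brain, where the insulin-producing cells release or hold back insulin-like peptides, and other tissues. Most of this is known from larvae, in which Gbp1, Gbp2 and Stunted (sun) promote insulin release in the fed state and Eiger (egr) represses insulin production when amino acids are scarce, while fit and upd2 were studied mainly in adults.

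The libraries held poly(A) RNA from heads and thoraces of 25 once-mated females after 3 days of feeding. The abdomen, with its fat body, was thus left out by design. Ovary markers were high in some libraries, as given below, and carry-over of abdominal tissue was not tested. wDah is the outbred control strain carrying a white mutation, and in the Gcn2 mutant, which was backcrossed to wDah, a white marker replaces the entire open reading frame. Yaa is a chemically defined diet with amino acids in the proportions of yeast, and -R, -M and -All are Yaa lacking arginine, methionine or every amino acid. The 2 genotypes and 4 diets gave 8 groups with 3 biological replicates each, and the question was how amino acid deprivation changes transcript levels with and without GCN2. The mutants are a whole-body deletion. The RNA of both genotypes came from heads and thoraces together, so no value below belongs to a single tissue. In such bulk samples fewer cells of a type cannot be told apart from less RNA per cell.

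The normalized counts of a library summed to 20.9 to 27.5 M (median 24.0), and the reads behind them were estimated at 21.0 to 31.6 M (median 24.6). Gcn2 was at 597 to 701 normalized counts in the 12 wDah libraries and at 106 to 185 in the 12 mutant libraries, a log2 difference of -2.22 (permutation test, p = 2e-05, the smallest that 100000 resamples can give). The mutant mean was thus 21.5% of that of wDah flies, while the authors saw no Gcn2 RNA in the mutant by Northern blot. Gcn2 shares 454 exon bases with PNPase on the opposite strand, which averaged 297 normalized counts. The source of the counts in the mutant was not tested. Replicate 2 of Gcn2 Yaa and replicate 1 of Gcn2 -R stood apart from their group, with a median absolute log2 difference of 0.26 to 0.28 from the other replicates against 0.072 to 0.14 between all other replicates. These libraries also had high counts of ovary markers, as did replicate 2 of Gcn2 -M, replicate 1 of wDah -M and replicate 1 of wDah -All. These 5, called ovary-rich below, were named from earlier results of these data and not by a threshold on the markers. Of 16 ovary markers listed, 4 were found. Their summed normalized count was 1004 to 4926 in the 5 libraries and 33.0 to 1263 in the others. Replicate 3 of wDah -All (1263) thus held more than 2 of the 5. In Gcn2 -R, Gcn2 -M and wDah -M the high sum was mostly osk (up to 3179, 1027 and 957). In Gcn2 -R Cp18, yellow-g and Fcp3C reached at most 14.2, 46.7 and 7.93. Fcp3C reached 297 in Gcn2 Yaa, and Cp18 reached 1279 in wDah -All. Calls of the 6 genes that change without the 5 libraries are given beside the result, and so are the larger changes in the counts of their partners. All 8 fat body markers were found, so tissue of this type was present in every group.

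Levels between the genes were compared by the deposited FPKM, a measure per length whose length basis is not given in the sources used here, so these levels and the ratio of Gbp2 to Gbp1 below carry that limit. sun was at a mean of 1476 FPKM over the 24 libraries, above 99.3% of the listed features, and fit at 1073 FPKM. Gbp2 was at 206 FPKM, Gbp1 at 79.4, daw at 30.3 and egr at 15.2. The 6 genes thus ranged from among the most abundant transcripts in these samples to moderately expressed ones, and all values below are normalized counts, which compare libraries and not genes.

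fit, short for female-specific independent of transformer, encodes a small secreted protein of the female fat body that protein feeding induces and that curbs further protein intake by acting on insulin-producing cells. The gene occupies bases 21883924 to 21884454 of chromosome 3R (BDGP6.54, minus strand) and has 1 transcript. In these flies its transcript was lowest on the complete diet and rose on all 3 deprived diets in both genotypes, most on -All. The order of the deprived diets differed between the genotypes, and this is plotted with Gbp2 by library.

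In wDah flies on Yaa, fit was at 630, 749 and 605 normalized counts. On -M it was at 2617, 1943 and 1803, on -R at 5899, 9114 and 5540, and on -All at 16150, 20337 and 22355. No 2 of these 4 groups overlapped. The log2 change against Yaa was 1.67 ± 0.137 (SE) on -M (adjusted p = 1.11e-04), 3.34 ± 0.174 on -R (adjusted p = 6.42e-06) and 4.88 ± 0.127 on -All (adjusted p = 7.32e-07), the last a 29.5-fold higher level. The diets also differed from each other, with -R above -M by 1.67 on the log2 scale (adjusted p = 0.00208) and -All above -R by 1.54 (adjusted p = 0.00318).

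In Gcn2 mutants on Yaa, fit was at 2086, 1485 and 1728 normalized counts, already 1.41 ± 0.142 higher on the log2 scale than in wDah flies on Yaa (adjusted p = 0.00495). It was at 3662, 3390 and 3888 on -R, at 11897, 11152 and 10481 on -M and at 15607, 33161 and 19341 on -All. Here -M lay above -R, the reverse of the order in wDah flies, and every deprived library was above every Yaa library. The log2 change against Yaa was 1.06 ± 0.143 on -R (adjusted p = 0.00351), 2.67 ± 0.126 on -M (adjusted p = 5.98e-05) and 3.62 ± 0.272 on -All (adjusted p = 2.04e-04). Among the deprived diets -R was below -M by a log2 difference of -1.62 (adjusted p = 6.42e-05), while -All exceeded -M by 0.95 without passing the test (adjusted p = 0.0619). Replicate 2 on -All was far above the other libraries of its group, and without it the difference from -M was 0.64 (adjusted p = 0.0137). With all 3 libraries that difference was called with array weights, a mean of at least 50, the same total per library or the single fit (adjusted p 0.0180 to 0.0497).

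The interaction of genotype and diet, that is the log2 change in Gcn2 mutants minus that in wDah flies, was -2.28 ± 0.259 for fit on -R (adjusted p = 1.22e-04) and 1.01 ± 0.211 on -M (adjusted p = 0.0147). The rise was smaller on -R and larger on -M in the mutant, but the call on -M was lost in a single fit of all 24 libraries (adjusted p = 0.0715). On -All the interaction was -1.26 ± 0.333 and did not pass the test (adjusted p = 0.192), but it passed without replicate 2 of Gcn2 -All (-1.57, adjusted p = 0.0103) or with array weights (-1.61, adjusted p = 0.00518). Compared directly, Gcn2 mutants held less fit than wDah flies on -R (log2 difference -0.87, adjusted p = 0.0121), more on -M (2.41, adjusted p = 1.46e-05) and a level on -All that could not be separated from wDah (0.15, 95% interval -0.44 to 0.74).

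Ordered by mean normalized count, the groups ran from wDah Yaa (661 ± 77.3 SD, n = 3) over Gcn2 Yaa (1766 ± 302), wDah -M (2121 ± 435), Gcn2 -R (3647 ± 249), wDah -R (6851 ± 1968), Gcn2 -M (11176 ± 708) and wDah -All (19614 ± 3165) to Gcn2 -All (22703 ± 9247). Only Gcn2 Yaa and wDah -M, and the 2 groups on -All, were neighbours whose libraries overlapped. The span of the group means was 5.03 on the log2 scale, the widest of the genes followed here.

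**Figure D1:**
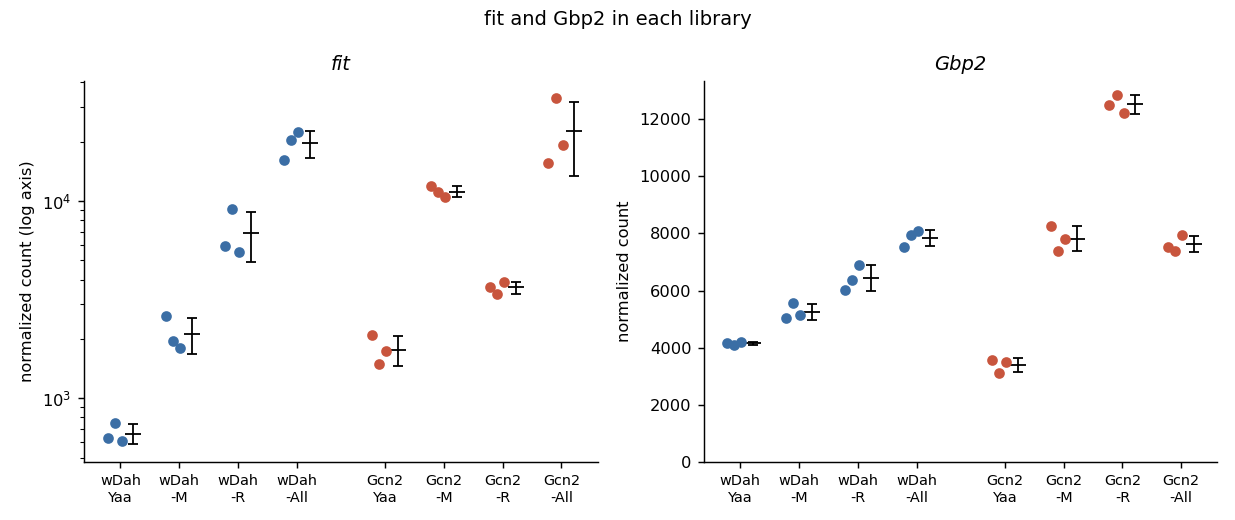
Normalized counts of fit (left, log axis) and Gbp2 (right, linear axis from 0) in each of the 24 libraries, by genotype and diet. Points are libraries, blue for wDah and red for Gcn2, and the black bar beside them is the mean with 1 SD (n = 3). For fit the libraries of Gcn2 -R (3390 to 3888) lie below those of wDah -R (5540 to 9114), and for Gbp2 those of Gcn2 -R (12211 to 12855) lie above all others.

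The genes whose pattern was most like that of fit over the 24 libraries, among 9217 genes compared, were the yolk protein genes Yp2 (Pearson r = 0.98), Yp1 (0.97) and Yp3 (0.96), which the female fat body also expresses. These correlations describe libraries that fall into 8 groups and carry no test. Yp2, for example, averaged 61714 normalized counts in wDah Yaa, 293209 in wDah -R, 96127 in wDah -M and 732811 in wDah -All, and 88259, 169001, 408970 and 773043 in the same diets of Gcn2 mutants.

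The whole list of fat body markers moved in the same comparisons. All 8 were called higher in wDah flies in each deprived group and in Gcn2 mutants without methionine, and 7 in Gcn2 mutants without any amino acid. On -R in Gcn2 mutants 4 were higher and 1, FASN1 (fatty acid synthase), was lower. With the same total per library 7, 7 and 8 were higher in wDah flies on -R, -M and -All. In mutants 3, 8 and 7 were then higher, with 1 lower on -R and 1 on -All. The 8 together held 2.07 to 2.43% of all normalized counts in wDah Yaa, 2.98 to 3.12% on -M, 5.66 to 6.31% on -R and 10.9 to 12.5% on -All. In Gcn2 mutants the share was 2.55 to 2.71% on Yaa, 7.33 to 8.39% on -M, 3.08 to 4.54% on -R and 10.9 to 13.4% on -All. The 5 markers other than the yolk proteins had summed normalized counts of 194564 to 208166 in wDah Yaa and 475164 to 508071 in wDah -All. Most of that sum was apolpp (means 127567 and 319475). Within it the mean of Tsf1 went from 8663 to 56012 and that of FASN1 from 54554 to 94795. The sum of the 5 markers was 286318 to 312804 in wDah -M and 399837 to 424216 in wDah -R. In Gcn2 mutants it was 161782 to 179793 on Yaa and 447914 to 488957 on -M. There it was 182367 to 274605 on -R and 420274 to 452312 on -All. The part that the amount of fat body RNA has in the fit result was not tested. fit shares 67 exon bases with CG31465 on the opposite strand, which averaged 4.22 normalized counts, and 32 exon bases with asRNA:CR45046, which averaged 312, so reads from the shared bases are uncertain.

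Gbp1 and Gbp2 encode growth-blocking peptides, small cytokines that the larval fat body secretes in response to amino acids and TOR and that act through the EGF receptor and the receptor encoded by mthl10. Gbp1 (2R from 17136451 to 17136903, plus strand, 1 transcript) and Gbp2 (2R from 17137240 to 17139595, plus strand, 2 transcripts) are neighbours with 336 bases and no gene between them. Gbp2 rose on every deprived diet in both genotypes, and Gbp1 beside it was not called in any of the 19 comparisons under the main settings.

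Gbp2 was at 4152, 4096 and 4189 normalized counts in wDah Yaa, at 5023, 5559 and 5146 on -M, at 6013, 6378 and 6910 on -R and at 7538, 7930 and 8074 on -All. The 4 groups did not overlap and stood in the same order as those of fit. The log2 change against Yaa was 0.34 ± 0.0436 on -M (adjusted p = 0.00121), 0.63 ± 0.0493 on -R (adjusted p = 6.54e-05) and 0.92 ± 0.0391 on -All (adjusted p = 4.68e-06). The steps between them were smaller, with -R above -M by 0.29 (adjusted p = 0.0174) and -All above -R by 0.29 (adjusted p = 0.0225). Neither step was called in every fit that left out 1 library: the first was lost without replicate 3 of wDah -M (adjusted p = 0.0512) or replicate 2 (0.0504) or 3 (0.0524) of wDah -R, and the second without replicate 1 (0.0722) or 2 (0.0820) of wDah -R or replicate 3 of wDah -All (0.0730). When each library was scaled to the same total, the second step was 0.15 (adjusted p = 0.109).

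In Gcn2 mutants Gbp2 was at 3552, 3109 and 3494 normalized counts on Yaa, at 8253, 7382 and 7811 on -M, at 12511, 12855 and 12211 on -R and at 7514, 7401 and 7938 on -All. The level on -R was above that of every other library of the series, and -M and -All overlapped. The log2 change against Yaa was 1.89 ± 0.0907 on -R (adjusted p = 7.14e-05), 1.21 ± 0.0759 on -M (adjusted p = 1.65e-04) and 1.17 ± 0.0757 on -All (adjusted p = 1.23e-04). -R exceeded -M by 0.68 (adjusted p = 9.22e-04), and -All was below -R by a log2 difference of -0.72 (adjusted p = 6.81e-04) although it removes arginine as well. Between -All and -M the difference was -0.04 (95% interval -0.17 to 0.10).

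The rise of Gbp2 was larger in the mutant on both single-amino-acid diets, with an interaction of 1.26 ± 0.0993 on -R (adjusted p = 1.01e-05) and 0.87 ± 0.0881 on -M (adjusted p = 1.23e-04). On -All it was 0.25 ± 0.0818 (adjusted p = 0.321). On -R fit and Gbp2 therefore had interactions of opposite sign, and on -M of the same sign. On Yaa all 3 mutant libraries lay below all 3 wDah libraries, but the difference of -0.30 did not pass the test (adjusted p = 0.0773). Without replicate 2 of Gcn2 Yaa, an ovary-rich library, it was -0.23 (adjusted p = 0.00564), and it also passed with array weights, the same total or the single fit (adjusted p 0.00384 to 0.0417).

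By mean normalized count the groups ran from Gcn2 Yaa (3385 ± 241 SD, n = 3), wDah Yaa (4146 ± 46.7), wDah -M (5243 ± 280.4) and wDah -R (6434 ± 451) to Gcn2 -All (7618 ± 283), Gcn2 -M (7815 ± 435) and wDah -All (7847 ± 277), which overlapped, and then Gcn2 -R (12526 ± 322). The genes whose pattern was most like that of Gbp2 over the 24 libraries were CG4847 (r = 0.98), CG13795 (0.98) and Spn42Da (0.97), the last a serpin, an inhibitor of proteases. CG4847 averaged 1851 normalized counts in wDah Yaa, 2768 in wDah -R, 1640 in Gcn2 Yaa and 5617 in Gcn2 -R. Gbp2 shares 146 exon bases with CG43103 on the opposite strand, which averaged 437 normalized counts.

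Gbp1 ranged from 372 to 577 normalized counts over all 24 libraries. Its group means were 445 ± 23.9 (SD, n = 3) in wDah Yaa and 521 ± 55.9 in wDah -R, and 451 ± 77.6 in Gcn2 Yaa and 541 ± 30.7 in Gcn2 -R. Its change in wDah flies on -R was 0.22 ± 0.083 on the log2 scale (adjusted p = 0.0905), and this passed without replicate 1 of wDah -R (0.30, adjusted p = 0.0312). Of the 19 comparisons, 2 had an unadjusted p under 0.05 and 0 an adjusted one by limma, the only tool run. Under other settings, Gcn2 -All against -R was called with array weights (-0.20, adjusted p = 0.0436) and with the same total (-0.39, adjusted p = 0.0149), where the main value was -0.14, and Gcn2 -R against Yaa in the single fit (0.27, adjusted p = 0.0430). The ratio of Gbp2 to Gbp1 in FPKM was 1.71 ± 0.107 (SD, n = 3) in wDah Yaa and 2.99 ± 0.206 in wDah -All, and 1.39 ± 0.162 in Gcn2 Yaa and 4.25 ± 0.165 in Gcn2 -R.

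daw encodes Dawdle, an activin-like ligand of the receptor Baboon that is a target of FOXO and, in larvae, regulates sugar metabolism and insulin release. It lies on 2L from 2805261 to 2812376 on the plus strand with 3 transcripts. In wDah flies -R and -All moved it in opposite directions. It was at 1869, 2076 and 1892 normalized counts in wDah Yaa, at 2366, 2248 and 2201 on -R, at 2262, 2009 and 2759 on -M and at 1467, 1297 and 1810 on -All. It rose on -R by 0.22 ± 0.0496 (adjusted p = 0.0137) and fell by 0.36 ± 0.114 on -All (adjusted p = 0.0409), and on -M, which overlapped Yaa, it differed by 0.26 ± 0.104 (adjusted p = 0.105). The change on -R was 0.078 with the same total per library (adjusted p = 0.216). Its call was also lost in the single fit of all 24 libraries (adjusted p = 0.456) and without replicate 1 (0.0530) or 3 (0.0550) of wDah Yaa. The call on -All was lost without any single library of wDah Yaa or without replicate 1 or 2 of wDah -All (adjusted p 0.0769 to 0.127), with the replicate block (0.0530), array weights (0.0789) or the single fit (0.0853), and without the ovary-rich library (0.0847).

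In Gcn2 mutants daw was at 1565, 1353 and 1621 normalized counts on Yaa, at 2049, 2264 and 2236 on -M, at 1404, 1975 and 2099 on -R and at 1202, 1084 and 1455 on -All. On -M it rose by 0.53 ± 0.0876 (adjusted p = 0.0107), a call lost without replicate 2 (0.0582) or 3 (0.0626) of Gcn2 -M. On -All its change of -0.29 (adjusted p = 0.201) was called with array weights (-0.32, adjusted p = 0.0294) and with the same total (-0.61, adjusted p = 0.0102). Its change on -R was 0.25 ± 0.174 (adjusted p = 0.317), where the ovary-rich replicate 1 was the low library, and without all ovary-rich libraries it was 0.35 (adjusted p = 0.00234). -All was below -M in both genotypes, by a log2 difference of -0.62 in wDah flies (adjusted p = 0.0249) and -0.82 in mutants (adjusted p = 0.00451), though in wDah flies the call was lost without the ovary-rich libraries (-0.62, adjusted p = 0.0996) and without replicate 1 or 3 of -M or 1 or 2 of -All (0.0573 to 0.0782). -All was also below -R in wDah flies (-0.59, adjusted p = 0.0164), a call lost without any single replicate of wDah -R (0.0591 to 0.0642), and in the mutants the difference of -0.54 missed the threshold (adjusted p = 0.0585) but passed without replicate 1 of Gcn2 -R (-0.72, adjusted p = 0.00213), with array weights, the same total or the single fit (adjusted p 9.13e-04 to 0.00927). The interactions on -R, -M and -All were 0.03, 0.27 and 0.08, with adjusted p-values of 0.926, 0.329 and 0.874. Against wDah flies the mutants differed by -0.37 on Yaa (adjusted p = 0.0946) and -0.34 on -R (adjusted p = 0.121), and without the ovary-rich libraries by -0.29 (adjusted p = 0.0159) and -0.16 (adjusted p = 0.0338).

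sun encodes Stunted, the epsilon subunit of the mitochondrial ATP synthase, which the larval fat body also releases as a ligand of the receptor Methuselah on insulin-producing cells. It lies on X from 15847859 to 15849258 on the minus strand with 2 transcripts. It was at 8366, 8791 and 8451 normalized counts in wDah Yaa and at 10664, 10013 and 9376 in wDah -All, a rise of 0.23 ± 0.0529 (adjusted p = 0.0129) that turned to -0.055 (adjusted p = 0.420) when each library was scaled to the same total, and that was lost in the single fit (0.0620) and without replicate 1 (0.0546) or 3 (0.0505) of wDah Yaa. In Gcn2 mutants it was at 6843, 6186 and 7652 on Yaa, 7801, 7783 and 8383 on -M, 6496, 7019 and 6284 on -R and 8732, 10709 and 9790 on -All. All 3 libraries on -All lay above all 3 on Yaa, with a log2 change of 0.50 ± 0.108 (adjusted p = 0.0228), which was not called with the replicate block (0.0691) or without replicate 2 (0.0815) or 3 (0.0958) of Gcn2 -All or replicate 1 of Gcn2 Yaa (0.0742). With the same total per library that change was 0.18 (adjusted p = 0.134).

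On -R, sun was lower in Gcn2 mutants than in wDah flies, where it was at 9259, 8978 and 9143. The log2 difference was -0.47 ± 0.0703 (adjusted p = 0.00265), and on Yaa it was -0.31 ± 0.0828 (adjusted p = 0.124), which passed without replicate 2 of Gcn2 Yaa (-0.24, adjusted p = 0.0297). On -M the difference of -0.22 (adjusted p = 0.0708) was called with the same total (-0.26, adjusted p = 0.0232). The interaction on -R was -0.16 ± 0.111 (adjusted p = 0.335) and -0.22 without the ovary-rich libraries (adjusted p = 0.0440). Within the mutants sun was lower on -R than on -M (-0.28, adjusted p = 0.0342), a call lost with the replicate block (0.0859), with the same total (-0.19, adjusted p = 0.0970) or without any of 4 of the 6 libraries (0.0866 to 0.131), and lower on -R than on -All, which was higher by 0.56 (adjusted p = 0.00663).

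egr encodes Eiger, the tumour necrosis factor of the fly, which the protease Tace frees from the fat body of larvae and the receptor Grindelwald (grnd) detects. It lies on 2R from 10078366 to 10084210 on the plus strand with 2 transcripts. Its range over the 24 libraries was narrow, 497 to 826 normalized counts, with 714 ± 23.9 (SD, n = 3) in wDah Yaa and 800.3 ± 31.6 in wDah -M. That difference of 0.16 ± 0.0501 was called at the edge of the threshold (adjusted p = 0.0453), and was lost with the replicate block (0.0723), in the table of these 6 libraries alone (0.0660) and without any of 5 of the 6 libraries (0.0719 to 0.136). With the same total it was 0.070 (adjusted p = 0.383), and in the single fit it was not called (adjusted p = 0.429). On -M Gcn2 mutants held less than wDah flies (log2 difference -0.25 ± 0.0528, adjusted p = 0.0113), with 671 ± 17.5 against 800.3 ± 31.6, a call lost in the single fit (adjusted p = 0.153). The 3 mutant libraries lay below all 3 wDah libraries there, and also on Yaa, -R and -All, where the test was not passed (adjusted p = 0.415, 0.152 and 0.457). The share of all genes separated in this way is not given here. Ovary-rich libraries were the lowest of the mutants on Yaa and on -R. Without them the differences there were -0.073 (adjusted p = 0.407) and -0.12 (adjusted p = 0.139). In the single fit the difference on -R was called (-0.28, adjusted p = 0.0384). On -All in wDah flies the change of 0.13 (adjusted p = 0.0968) became -0.15 (adjusted p = 0.0470) with the same total per library.

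**Figure D2:**
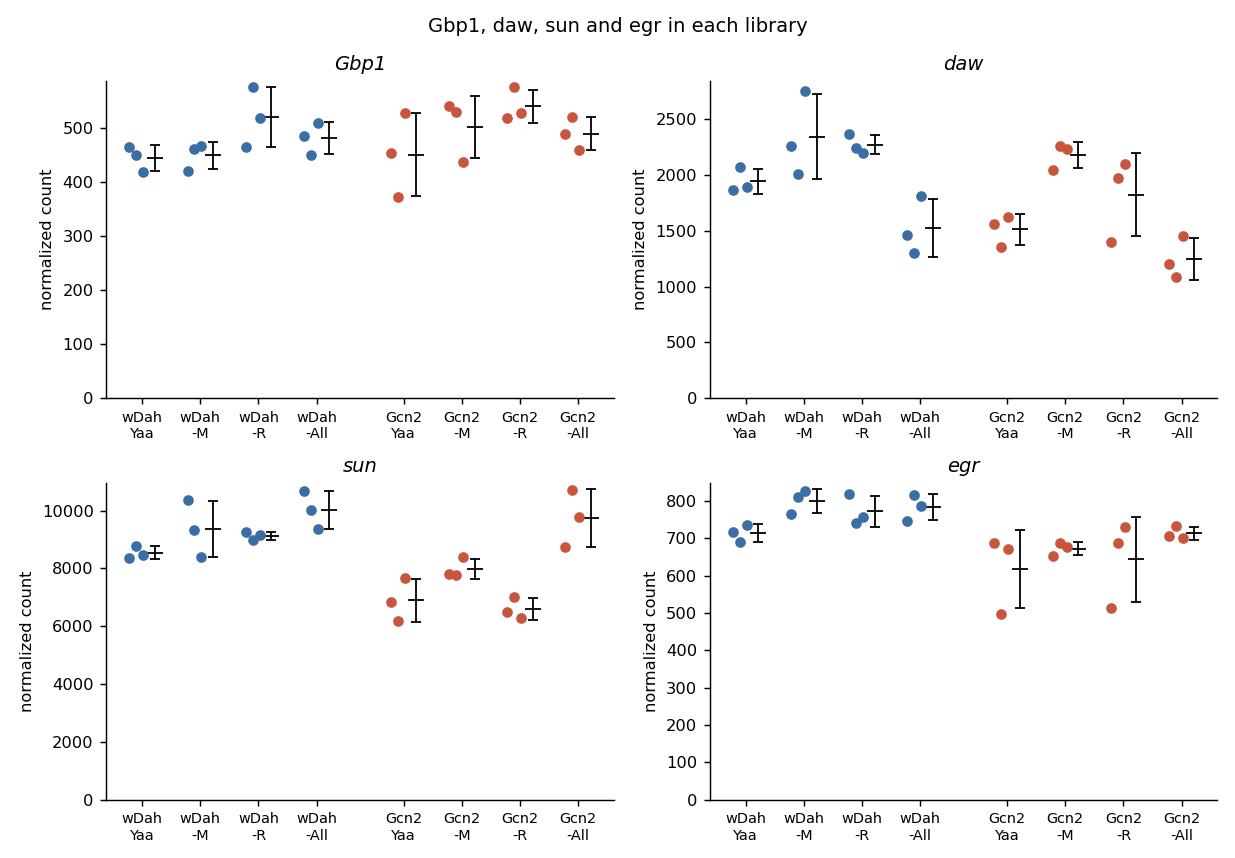
Normalized counts of Gbp1, daw, sun and egr in each of the 24 libraries, on linear axes from 0. Points are libraries, blue for wDah and red for Gcn2, and black bars are the mean with 1 SD (n = 3). daw has its lowest mean on -All in both genotypes (libraries 1297 to 1810 in wDah, 1084 to 1455 in Gcn2), and Gbp1 stays between 372 and 577 throughout.

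upd2 encodes a cytokine of the JAK/STAT pathway that in adults carries a fed signal from the fat body to the brain, a role compared with that of leptin. It lies on X from 18240654 to 18243284 on the minus strand with 1 transcript. In the table of the mutants on Yaa and -R it was at 1.03, 3.79 and 0 normalized counts on Yaa and at 3.07, 5.16 and 1.02 on -R. The groups overlapped, these values stand for only a few reads, and the gene was not tested. upd2 in the other 6 groups was not analysed here.

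Of the 6 genes tested, 3 were called in wDah flies on -R, where 22.8% of all genes were called, 3 on -M (25.7% of all genes) and 4 on -All (35.4%). In Gcn2 mutants 2 were called on -R (21.9%), 3 on -M (11.0%) and 3 on -All (14.1%). Within a genotype, the 3 diet comparisons rest on the same Yaa libraries. All of these calls were higher than on Yaa except daw in wDah flies on -All, and the call of sun there has the reversal given above. Of the interactions, 2 of 6 were called on -R (21.5% of all genes), 2 on -M (6.93%) and 0 on -All (0.882%), where 2 had an unadjusted p under 0.05. Between the genotypes 1 gene was called on Yaa (2.69%), 3 on -R (45.8%), 3 on -M (23.1%) and 0 on -All (1.07%), where 0 had an unadjusted p under 0.05 either. The count on Yaa was 4 without replicate 2 of Gcn2 Yaa, the added genes being Gbp2, daw and sun, and the count in wDah flies on -All was 2 without replicate 1 or 3 of wDah Yaa. Among the deprived diets of wDah flies 2 were called for -R against -M (14.5%), 3 for -All against -R (10.6%, but 1 without replicate 1 or 2 of wDah -R) and 3 for -All against -M (17.2%), and in Gcn2 mutants 3 for -R against -M (36.8%), 3 for -All against -R (37.0%) and 1 for -All against -M (4.37%, but up to 3 without replicate 1 of Gcn2 -All). The first of these counts was 1 without replicate 3 of wDah -M or replicate 2 or 3 of wDah -R.

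**Figure D3:**
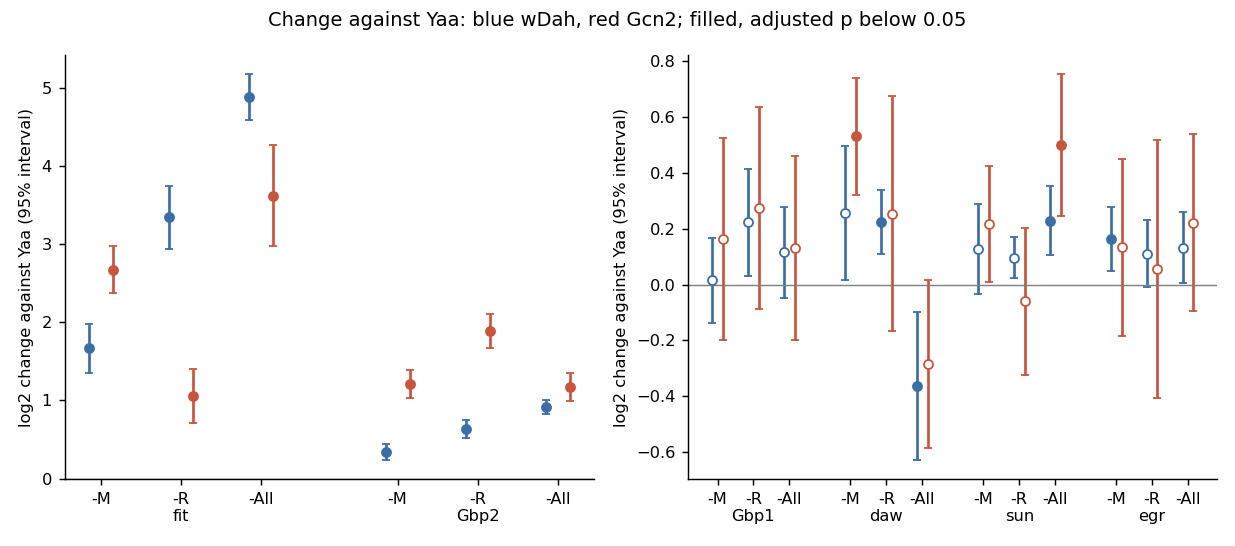
Log2 change against Yaa of the 6 genes tested on -M, -R and -All, with the 95% interval of the limma fit, for wDah (blue) and Gcn2 (red), each on 6 libraries. Filled points have an adjusted p below 0.05 over all genes. The vertical axes differ between the panels: fit and Gbp2 change by 0.34 to 4.88, and the other genes stay within -0.36 and 0.53, where the change of sun and of egr in wDah on -All turns negative with the same total per library.

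Partners of these signals were read from lists of their receptors, ligands and targets, with the same calls. Scaling each library to the same total moved the median of all genes to -0.09 to -0.37 in these comparisons and changed several lists, as given with each. The share of all genes called with that scaling is not given here. List counts under it therefore lack a background to be read against. Under the main settings 13.8% of all genes tested were called higher and 8.98% lower in wDah flies on -R, 15.3 and 10.4% on -M, and 19.7 and 15.7% on -All. In mutants these shares were 17.3 and 4.60% on -R, 8.55 and 2.49% on -M, and 10.6 and 3.54% on -All. The median log2 change of all genes lay between -0.050 and 0.0059 in these 6 comparisons.

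Of the 5 genes listed around Gbp1 and Gbp2, 3 were called higher and 1 lower in wDah flies on -R and on -M, and 2 higher and 1 lower on -All. In mutants 2 were higher on every diet and 1 was lower on -R. The median change of the list ran from -0.29 (Gcn2 -R) to 0.26 (wDah -R). The paralogue Gbp3 and the receptor gene Egfr rose in all 6 diet comparisons. Gbp3 averaged 1251 normalized counts in wDah Yaa and 2460 in wDah -All (log2 change 0.97, adjusted p = 7.55e-06), and 1258 in Gcn2 Yaa and 2044 in Gcn2 -R (0.70, adjusted p = 0.0109). Its interaction on -R was -0.10 (adjusted p = 0.658), where that of Gbp2 was 1.26. Egfr rose by 0.43 on -R, 0.36 on -M and 1.03 on -All in wDah flies and by 0.66, 0.73 and 1.16 in mutants, with an interaction of 0.38 on -M (adjusted p = 0.0149). aos, which encodes an inhibitor of the EGF receptor, fell by 0.29 in wDah flies on -R (adjusted p = 0.0409) and by 0.66 in mutants (adjusted p = 0.0159). sty, another inhibitor of the pathway, rose by 0.26 in wDah flies on -R (adjusted p = 0.00446) and changed by -0.54 in mutants, where the test was not passed. Without the ovary-rich libraries 3 genes of the list were called lower in mutants on -R and 1 on -M, and 3 were higher in wDah flies on -All.

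Of the JAK/STAT partners of upd2, 6 of 7 were found. In mutants on -R 3 of 6 tested were called higher (4 without the ovary-rich libraries), with a median change of 0.42, and on the other diets 1 to 3 of 5 tested in either genotype, with medians of -0.082 to 0.19. Those called in mutants on -R include upd3, which reached the minimum mean in that diet comparison alone. Under the same total 1 was called higher on each of these diets, and 2 were lower on -R and -All in wDah flies and on -All in mutants. Stat92E, the transcription factor of the pathway, rose in wDah flies on -R by 0.65 (adjusted p = 7.89e-06), on -M by 0.49 and on -All by 0.99, and in mutants on -M by 0.71 and on -All by 1.03. On -R in mutants it differed from Yaa by -0.27 (adjusted p = 0.160), and the interaction was -0.93 ± 0.131 (adjusted p = 5.51e-04). The ligand gene upd3 had the reverse pattern. It was at 37.2, 54.3 and 62.6 normalized counts in Gcn2 -R against 12.8, 3.23 and 10.9 in Gcn2 Yaa, a log2 change of 2.53 ± 0.53 (adjusted p = 0.0186), and its interaction was 3.08 ± 0.709 (adjusted p = 0.0102). The 3 Gcn2 -R libraries were above all others, which held at most 14.1, and in the other 5 diet comparisons upd3 was under the minimum mean and was not tested. In the comparison and the interaction on -R it reached that minimum only through the Gcn2 -R libraries. These tests therefore add no support to the counts. On the same diet the mutants also held more Socs36E, a target and feedback inhibitor of the pathway (0.61, adjusted p = 0.0109, interaction 0.48), and more et, which encodes a negative regulator of the receptor (0.82, adjusted p = 0.00381, interaction 0.69).

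Of the 6 other fat body hormones and binding proteins listed, 3, 4 and 4 were called higher in wDah flies on -R, -M and -All and 2, 3 and 4 in mutants, with medians of 0.22 to 0.71. ImpL2, an insulin-binding antagonist named after its values were seen, was lower in wDah flies on -R and -M (-0.29 and -0.40). With the same total the counts of higher genes were 3, 4 and 3 and 2, 2 and 4, and without the ovary-rich libraries 3 were higher and 1 lower in mutants on -R. CCHa2, a peptide that in larvae links nutrients to insulin release, had the largest changes of the list. It averaged 1634 normalized counts in wDah Yaa, 1840 in wDah -R, 2923 in wDah -M and 7305 in wDah -All. In mutants the means on the same diets were 1495, 6764, 2828 and 8729. It rose by 2.16 in wDah flies on -All and by 2.54 in mutants, and its interaction on -R was 2.01 ± 0.13 (adjusted p = 2.60e-06), the same sign as that of Gbp2. Ilp6, an insulin-like peptide of the fat body, rose by 1.04 in wDah flies on -M (adjusted p = 1.94e-04) with an interaction of -0.89 (adjusted p = 0.00529), and the mutants averaged 666 on Yaa and 736 on -M. NimB5, which encodes a secreted protein of the fat body that in larvae restrains hemocyte number, rose on all 6 diets, by 0.50 to 1.15, with interactions of 0.43 on -R and 0.64 on -M. NLaz, a lipocalin, rose on all diets but -R in mutants, where its change was 0.04.

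Of the 3 insulin-like peptide genes of the brain, the target cells of these signals, 3 were called higher on -R, 2 on -M and 2 on -All in wDah flies, and 1, 2 and 1 with the same total per library. The mutants had 1 call on -M, 3 on -All (2 with the same total) and 0 on -R (0 also at an unadjusted p under 0.05). Ilp5 averaged 56.2 normalized counts in wDah Yaa and 102 on -R (0.85, adjusted p = 0.00712), and 46.3 in Gcn2 Yaa, 55.2 on -R and 142 on -All (1.59, adjusted p = 0.00149). Ilp3 rose by 0.47 in wDah flies on -R (adjusted p = 0.0272), which was 0.33 with the same total (adjusted p = 0.0579). Ilp2 rose by 0.18 (adjusted p = 0.0337), which was 0.037 with the same total (adjusted p = 0.569). The median change of the 3 there was 0.47, beside -0.014 over all genes tested. The interactions of Ilp2, Ilp3 and Ilp5 on -R were -0.49, -0.67 and -0.61 and were not called, with 3 at an unadjusted p under 0.05. Without the ovary-rich libraries Ilp2 and Ilp3 were called lower in mutants on -R (-0.36 and -0.43), as were their interactions, and all 3 genes were higher in wDah flies on -All. The 4 neuron markers were low in Gcn2 -R. Their summed normalized count was 8768 (replicate 1) to 20495 there, 22707 to 29374 in Gcn2 Yaa and 28410 to 28637 in wDah -R. The median interaction of the list on -R was -0.75 with 0 of 4 called. In wDah flies the sum was 29341 to 30666 on Yaa. It was lower on -M (22774 to 25428) and on -All (23484 to 26274), where 2 of the peptide genes were called higher. The part of neuron RNA in the values of the brain peptides was not tested.

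**Figure D4:**
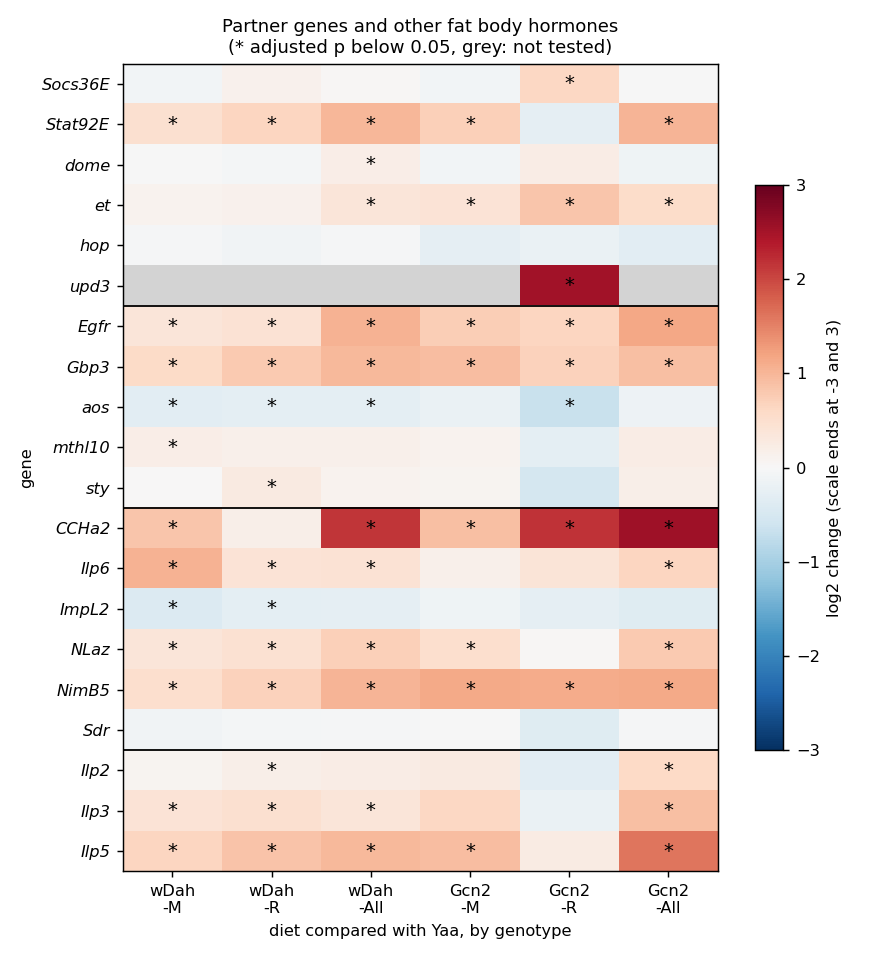
Log2 change against Yaa (colour) of partner genes and other fat body hormones, by genotype and diet. Rows are grouped as the JAK/STAT partners of upd2, the partners and paralogue of Gbp1 and Gbp2, other fat body hormones and binding proteins, and insulin-like peptides of the brain, an asterisk marks an adjusted p below 0.05, and grey cells were not tested. upd3 was tested on Gcn2 -R alone (2.53), where those libraries brought it over the minimum mean. CCHa2 reaches 2.54 on Gcn2 -All, and the call of dome on wDah -All turns negative with the same total per library.

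Of the 12 other ATP synthase subunits listed for sun, 10, 7 and 11 were called higher in wDah flies on -R, -M and -All, and 6 and 10 in mutants on -M and -All, but with the same total per library these counts were 1, 2, 4, 2 and 7. The median change of the list was 0.15, 0.20 and 0.35 in wDah flies and 0.06, 0.34 and 0.58 in mutants on -R, -M and -All, and 0.0020 in wDah flies on -R with the same total. In mutants on -R 0 were called, with 0 at an unadjusted p under 0.05, and 1 was called lower without the ovary-rich libraries, which gave 4 calls on -M in wDah flies. blw, which encodes the alpha subunit, rose by 0.30 on -R in wDah flies (adjusted p = 0.00126). ATPsynC, ATPsynO and ATPsyngamma, further subunits, rose there by 0.22, 0.18 and 0.20 (0.073, 0.033 and 0.057 with the same total, not called), and on -All by 0.58, 0.42 and 0.43 in wDah flies and by 0.80, 0.66 and 0.60 in mutants. These rises on -All were smaller with the same total, from 0.13 to 0.48, and were called. mth, the receptor gene of Stunted, changed by -0.07 to 0.16 in the 6 diet comparisons and was not called in any, but without the ovary-rich libraries it was called higher in mutants on -R (0.24, adjusted p = 0.0319).

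Of the 9 partners of egr, 1 was called higher on each diet in wDah flies, and 0, 3 and 2 were lower on -R, -M and -All. In mutants 1 was lower on -R and 0 on the other diets. The count of lower calls depended on the scaling: with the same total per library it was 4, 5 and 7 of 9 in wDah flies and 1, 1 and 5 in mutants, with 0 higher. On -All the list median was then -0.199 in wDah flies and -0.242 in mutants, above the -0.301 and -0.371 of all genes. It was below that of all genes in wDah flies on -M (-0.135 beside -0.0865) and in mutants on -R (-0.289 beside -0.103). Without the ovary-rich libraries 3 were lower and 1 higher in mutants on -R and 1 was lower on -M. Tace (log2 change -0.28 on -M and -0.29 on -All) and bsk, the JNK kinase gene (-0.21 and -0.23), fell in wDah flies, and Tak1 fell on -M (-0.23, adjusted p = 0.00291) and in mutants on -R (-0.51, adjusted p = 0.0148). hep, which encodes the kinase above bsk, rose by 0.18 in wDah flies on -R (adjusted p = 0.0112), and its rise of 0.15 on -All turned to -0.13 with the same total. Under the main settings the median of the list lay between -0.21 (Gcn2 -R) and 0.085.

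Of the 8 activin partners of daw, 0, 1 and 3 were called lower in wDah flies on -R, -M and -All, and 0 were higher. Actbeta fell on -M and on -All (-0.23 and -0.29), and the receptor gene babo (-0.19) and the ligand gene myo (-0.15) fell on -All. In mutants 0 of the 8 were called on any diet, with 2, 3 and 1 at an unadjusted p under 0.05 on -R, -M and -All. Other settings gave very different counts of lower calls. Scaled to the same total they were 3, 2 and 8 of 8 in wDah flies and 1, 3 and 6 in mutants. On -All the list median was then -0.315 in wDah flies and -0.359 in mutants, close to -0.301 and -0.371 over all genes. In mutants on -R it was -0.532 beside -0.103. Without the ovary-rich libraries the lower calls were 0, 0 and 3 in wDah flies and 5, 2 and 1 in mutants. Under the main settings the median of the list lay between -0.46 (Gcn2 -R) and 0.039.

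Of the 8 genes of nutrient sensing, 1 was called higher on -R, 4 on -M and 1 on -All in wDah flies, with 2 lower on -All, and in mutants 1 was higher and 1 lower on -R and 1 was higher on -M. Thor, which encodes the translation inhibitor 4E-BP, rose by 0.66 on -M and fell by 0.67 on -All in wDah flies, and its interaction on -M was -1.04 (adjusted p = 0.00851). In mutants its changes of -0.80, -0.38 and -0.55 on -R, -M and -All missed the threshold, and without the ovary-rich libraries they were -0.64, -0.53 and -0.75 and passed (adjusted p = 0.00164, 0.0112 and 0.00225). Tor, which encodes the kinase, rose by 0.28 on -M (adjusted p = 0.00408) and by 0.24 on -All (adjusted p = 0.00803) in wDah flies, the latter turning to -0.045 with the same total, and in mutants by 0.51 on -R (adjusted p = 0.0398) and 0.31 on -M (adjusted p = 0.0354), neither called with the same total. REPTOR, a transcription factor that TOR represses, rose by 0.31 in wDah flies on -M (adjusted p = 8.84e-04). The gene of its partner REPTOR-BP fell by 0.33 in wDah flies on -All (adjusted p = 0.00342) and by 0.63 in mutants on -R (adjusted p = 0.0227), with an interaction of -0.60 on -R (adjusted p = 0.0138). Without the ovary-rich libraries 2 of the 8 were higher and 4 lower in mutants on -R, and 1 was higher and 2 lower on -M and on -All. With the same total the lower calls were 3, 3 and 5 in wDah flies and 2, 2 and 6 in mutants, with higher calls in wDah flies on -M alone (4).

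Markers of other tissues moved in the same comparisons. Of 6 hemocyte markers, 5, 2 and 6 were higher in wDah flies on -R, -M and -All and 4, 5 and 6 in mutants. With the same total per library these counts were 4, 2 and 6 and 4, 3 and 5, with 1 lower in wDah flies on -M. The summed normalized count of the 6 was 11380 to 11596 in wDah Yaa, 13753 to 15309 in wDah -R, 18575 to 20486 in wDah -All and 16030 to 18060 in Gcn2 -R. Of 10 digestive enzymes of the gut, 6 were lower in mutants on -R, where the sum was 66248 to 96262 against 145808 to 167342 in Gcn2 Yaa, while 7 were higher in wDah flies on -R. Markers of the head and thorax were also at low levels in Gcn2 -R. The sum of 5 photoreceptor markers was 207449 to 233871 there against 240707 to 344653 in Gcn2 Yaa, with 0 of 5 called (3 at an unadjusted p under 0.05). That of 5 flight muscle markers was 97613 to 106569 against 103996 to 131239, with 1 called lower, and of the 4 neuron markers given above 0 were called (2 at an unadjusted p under 0.05). With the same total 2 of the flight muscle markers and 1 of the neuron markers were called lower. Whether these changes in tissue RNA have a part in the results on upd3, Egfr or Gbp2 was not tested.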

How the data were processed

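RNA-seq of heads and thoraces was made from 24 libraries, 3 for each genotype and diet. Per the submitters' notes and methods, single-end reads of 100 bp were assigned by the authors to BDGP6 transcripts with kallisto 0.46.2 and normalized with DESeq2 1.24.0 in R 3.6.3. What the authors deposited is a signal (normalized counts), that is estimated counts divided by size factors, in 6 tables of 6 libraries and 1 of all 24. The deposited FPKM values are these times a constant per gene, with a length basis not given in the sources used here, and served only for levels between genes. Columns of fold changes and p-values of the authors' own tests in the deposited tables were not used. Reads were not recovered, since 83.1 to 86.9% of low values were whole multiples of a read (tolerance 0.02).

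log2(normalized count + 1) was fitted with limma 3.58.1 (eBayes with trend) in R 4.3.3 for genes that averaged at least 10 in the libraries compared, with Benjamini-Hochberg adjustment over all genes tested and a threshold of 0.05. Groups were taken from the labels. Diets and genotypes were compared on 6 libraries, interactions on 12. Fold changes are on this scale. The script was tested on simulated data. Positions and overlaps are from BDGP6.54, a later release than the one used for the tables, which give gene names. The members and lists were chosen with earlier results of these data known. In each list the genes called in a diet comparison were named, at most the 4 with the smallest adjusted p, and for fit and Gbp2 the 3 genes with the highest correlation. Other named genes were chosen after their values were seen. Alternatives were a pseudocount of 10, no filter, a mean of at least 50, the same total per library, array weights, a single fit of all 24 libraries, the replicate number as a block, leaving out each library or the 5 ovary-rich ones, and the tables of 6 libraries.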

Additional observations from a re-analysis of the deposited data

Results flagged for a closer look

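The change against Yaa differed between the genotypes, by the interaction test, for 2 genes on 2 diets. For fit the difference (Gcn2 minus wDah, log2) was -2.28 on -R and 1.01 on -M. For Gbp2 it was 1.26 on -R and 0.87 on -M. All 4 stayed called without the 5 ovary-rich libraries, at -2.41, 1.05, 1.20 and 0.82. In the single fit of all 24 libraries the value of fit on -M was not called (1.01, adjusted p = 0.0715), and the other 3 were.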

How the results depend on the processing

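Of 114 values of the 6 genes, 0 changed their side of the threshold with a pseudocount of 10 or without a filter on low values, and 1 was gained with a mean of at least 50. With the same total per library, 2 reversed in wDah flies on -All, sun to -0.055 and egr to -0.15, 7 were gained and 5 lost. This scaling moved the median log2 change of all genes to -0.16, -0.09 and -0.30 on -R, -M and -All in wDah flies and to -0.10, -0.21 and -0.37 in mutants, from between -0.050 and 0.0059. Array weights gained 10 calls and lost 1, the single fit gained 6 and lost 6, and leaving out the 5 ovary-rich libraries gained 7 and lost 2 of 108. Of 792 values with 1 library left out, 14 were gained and 36 lost. The cause of these changes was not tested.

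The number of genes called for Gcn2 -All against -M (1) was 2 with array weights, a mean of at least 50, the same total or the single fit, and 1 to 3 with 1 library left out. For Gcn2 -All against -R (3) it was 5 with array weights or the same total. For Gcn2 against wDah on Yaa (1) it was 4 with array weights, 2 with the same total, 3 with the single fit, 4 without the ovary-rich libraries and 1 to 4 with 1 left out. The interaction on -All (0) gave 1 with array weights and 0 to 1 with 1 left out, and that on -M (2) gave 1 with the single fit, in which fit was not called. For wDah -All against -R (3) the range with 1 left out was 1 to 3, for wDah -All against Yaa (4) it was 2 to 4, with 2 in the single fit, and for wDah -R against -M (2) it was 1 to 2.

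Replicate numbers gave no clear pairing of the libraries. Deviations of libraries with the same number had a median correlation of 0.0233 over 84 pairs (lowest -0.565), against -0.011 over 168 pairs with different numbers. Of 24 libraries, 12 correlated best with their own number. These values cannot exclude a pairing. With the replicate block 4 of the 114 values lost their call, each given above, and no other call changed. The 3 libraries per group limit the smaller changes of daw, sun and egr, and upd2 was read in 6 libraries alone, at values too low to compare.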
